A study of Mus musculus with 56 samples.

Results

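The measurements follow 9 mouse genes of neurotrophin signalling: the ligands Bdnf and Ntf3, the receptor kinases Ntrk2 (TrkB) and Ntrk3 (TrkC), the shared receptor Ngfr (p75), and the sortilins Sort1, Sorcs1, Sorcs2 and Sorcs3. They were chosen by symbol, and every probe set that carries 1 of these symbols alone was used. That gave 47 of the 79697 single-symbol probe sets, for 8 of the 9 genes among the 23600 genes with one. Ntf3 had no such probe set and was not analysed here.

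The series asked how topoisomerase inhibitors change the expression of genes linked to autism. It grew cortical neurons of the C57BL6 strain from embryonic day 13 to 15, exposed them to drugs or shRNA, and measured RNA on 56 Affymetrix arrays of 3 designs: 12 arrays of a 3' design, 10 of an earlier whole-gene design and 34 of a later one. On the 3' arrays, 300 nM topotecan and 3 µM ICRF-193 each had 3 arrays and 3 vehicle arrays of their own. The earlier arrays held a topotecan dose series of 3 vehicle arrays and 1 array each at 3, 30, 150, 500 and 1000 nM, with 2 at 300 nM. The later arrays held 1 µM topotecan (6 arrays and 6 vehicle arrays), 10 µM irinotecan (3 arrays), a 24 h topotecan array and a washout array (these last 3 groups share 2 vehicle arrays), control, Top1 and Top2b shRNA (3 arrays each), 100 µM DRB with 1 vehicle array, and 100 µM H2O2 and 10 µM paraquat with 2 vehicle arrays between them.

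Topotecan and irinotecan are camptothecin derivatives that trap topoisomerase I on DNA, and irinotecan needs to be converted to its active form in the body. ICRF-193 blocks topoisomerase II without trapping it on cut DNA, DRB inhibits the kinase that releases RNA polymerase II into elongation, and H2O2 and paraquat are oxidants. The shRNAs were carried by lentivirus, and the control was a scrambled sequence. All drug cultures had been 7 days in vitro, and drugs were applied for 24 or 72 h, but most titles do not say which. Nothing in the labels states that replicate arrays came from separate cultures, so the p-values measure the spread between arrays.

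Neurotrophins are made as larger precursors, cut to mature ligands and released from neurons in part in response to activity. Mature BDNF signals through TrkB and neurotrophin-3 through TrkC, and these kinases feed the Ras, PI3-kinase and phospholipase C pathways that act on survival, dendrites and synapses. The p75 receptor binds all neurotrophins, and with a sortilin partner it binds the uncut precursors. The sortilin family, single-pass receptors with a Vps10 domain, also sorts neurotrophins and Trk receptors inside the cell. In the forebrain, neurons carry full-length TrkB, and astrocytes carry mainly a form that lacks the kinase. In bulk RNA, fewer cells of a type and less RNA per cell cannot be told apart.

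The start-site windows of 5 members are printed because these genes are the ones whose levels are set side by side most often in the results: the ligand, the BDNF receptor, the shared receptor, and a pair of sortilins whose levels lay on the same side of control at 1 µM topotecan and with irinotecan and on opposite sides under shRNA. Each window is 300 bases of RefSeq sequence on GRCm38.p6, read 5′ to 3′ on the strand of the gene, from 250 bases before the annotated start to 50 after it. Capitals mark the GC box GGGCGG or its complement CCGCCC, and the CRE core TGACG or its complement CGTCA. The Bdnf window is chr2:109692186-109692485 on the plus strand, the only 1 of 7 Bdnf windows that held a CRE core. The Ntrk2 window is chr13:58806319-58806618 on the plus strand, and the Ngfr window is chr11:95587649-95587948 on the minus strand. The Sorcs1 window is chr19:50678597-50678896 on the minus strand, and the Sorcs3 window is chr19:48205775-48206074 on the plus strand.
Bdnf: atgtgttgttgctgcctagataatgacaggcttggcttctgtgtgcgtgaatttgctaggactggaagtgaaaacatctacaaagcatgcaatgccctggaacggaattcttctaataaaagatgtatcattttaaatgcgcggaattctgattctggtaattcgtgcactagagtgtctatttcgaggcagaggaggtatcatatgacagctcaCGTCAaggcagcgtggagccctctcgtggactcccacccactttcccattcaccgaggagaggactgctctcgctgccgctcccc
Ntrk2: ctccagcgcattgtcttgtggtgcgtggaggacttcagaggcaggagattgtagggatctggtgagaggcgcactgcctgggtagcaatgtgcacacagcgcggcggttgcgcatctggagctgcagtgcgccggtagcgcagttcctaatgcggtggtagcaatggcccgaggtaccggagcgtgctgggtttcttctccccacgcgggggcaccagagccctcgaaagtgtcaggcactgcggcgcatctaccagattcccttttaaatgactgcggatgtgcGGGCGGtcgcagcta
Ngfr: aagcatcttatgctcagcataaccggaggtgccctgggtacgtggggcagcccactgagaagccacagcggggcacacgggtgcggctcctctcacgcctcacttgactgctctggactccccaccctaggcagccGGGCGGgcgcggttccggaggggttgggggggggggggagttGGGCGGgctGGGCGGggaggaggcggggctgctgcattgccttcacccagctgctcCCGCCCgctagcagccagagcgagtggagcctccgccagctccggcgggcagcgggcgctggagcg
Sorcs1: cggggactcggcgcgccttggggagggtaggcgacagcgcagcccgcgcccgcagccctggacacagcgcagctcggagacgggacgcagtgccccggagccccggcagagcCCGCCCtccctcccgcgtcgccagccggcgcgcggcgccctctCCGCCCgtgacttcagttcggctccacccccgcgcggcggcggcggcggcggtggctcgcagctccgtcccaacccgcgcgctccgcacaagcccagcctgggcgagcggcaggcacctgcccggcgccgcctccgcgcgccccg
Sorcs3: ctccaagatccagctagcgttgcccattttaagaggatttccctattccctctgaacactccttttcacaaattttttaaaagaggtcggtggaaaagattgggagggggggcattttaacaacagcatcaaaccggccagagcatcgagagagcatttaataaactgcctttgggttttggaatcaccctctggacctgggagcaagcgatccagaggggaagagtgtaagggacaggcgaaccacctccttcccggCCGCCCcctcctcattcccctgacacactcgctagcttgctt
The Sorcs1 window was 80.7% G or C and the Ngfr window 71.7%, against 61.3% for Ntrk2, 51.0% for Sorcs3 and 48.7% for Bdnf. The median over all 32851 windows was 52.7%. Matches to the GC box numbered 4 for Ngfr, 2 for Sorcs1, and 1 each for Ntrk2 and Sorcs3. Over the 13 windows of the 6 members that had any, 8 held the GC box, and 35.7% of all windows did. The CRE core was in 1 of the 13 and in 20.8% of all windows. The full CRE TGACGTCA, which contains that core, was in none of the 13 and in 1.79% of all, and the E box CACGTG was in 1 of the 13, a Ntf3 window, and in 7.15% of all. Both strands were searched, and a match describes these letters only. Ntrk3, Sort1 and Sorcs2 had no window in the table used.

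All levels below are log2 of the deposited intensity. Probe sets with a mean level under the 40th percentile of their array design, the filter limit, were not tested. The limit is not a call of detection. It left 20 of 30 member probe sets on the 3' arrays, 8 of 8 on the earlier arrays and 9 of 9 on the later arrays. The 10 left out included all 3 of Sorcs1, so Sorcs1 was tested on the whole-gene arrays only. Levels of different probe sets are not set against each other. Mean intensity per array differed between sets of arrays of 1 design: 571 to 577.3 in the ICRF-193 set and 682.3 to 698.3 in the topotecan set on the 3' arrays, and 137.8 to 211 over the later arrays. Each treatment was therefore compared within its own set, but shRNA replicate 1 of each group lay with the topotecan set of the later arrays (177.5 to 183.3) and replicates 2 and 3 with the irinotecan set (137.8 to 143.7). All astrocyte marker ranges below are sums over 12 genes, 10 of them above the filter limit and Gjb6 and S100b below it. The cultures were labelled as neurons, and pan-neuronal markers gave sums of 16290 to 20860 in the vehicle arrays of the 1 µM topotecan set, where the astrocyte sums were 4576 to 5076.

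**Figure D1:**
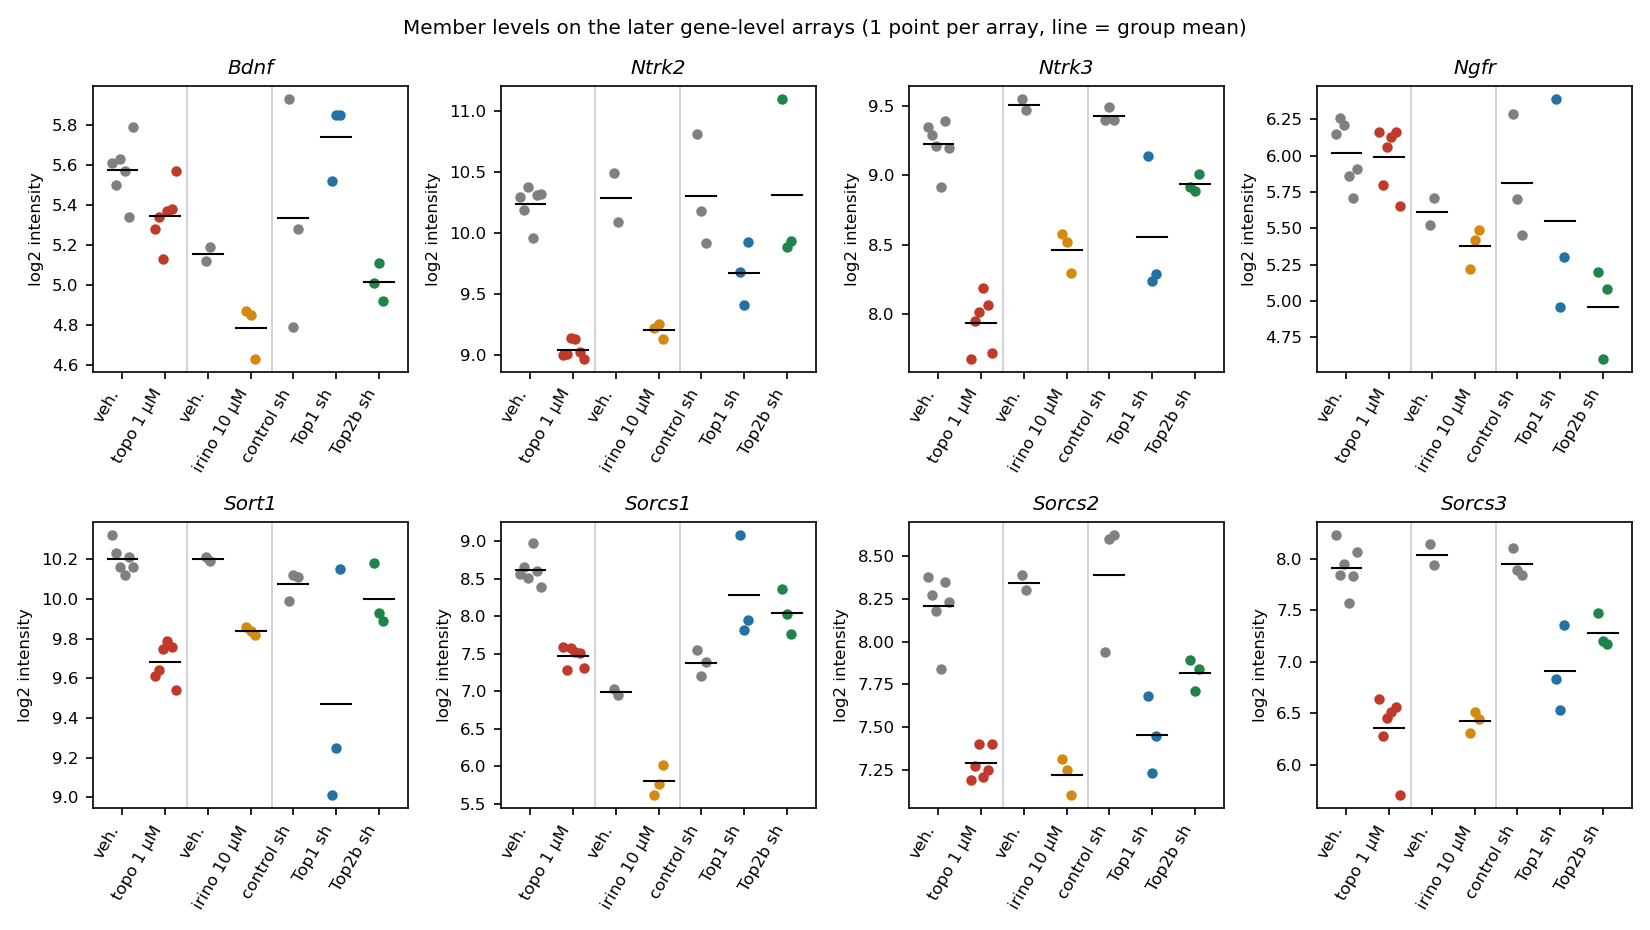
Log2 intensity (vertical axes) of the 8 measured genes on the later arrays in 7 groups (horizontal axis), with 1 point per array and a line at each group mean. Ntrk2, Ntrk3, Sorcs1, Sorcs2 and Sorcs3 lie lower on every topotecan and irinotecan array than on any vehicle array of the same set. Ngfr overlaps its vehicle at 1 µM topotecan.

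With 1 µM topotecan, 7 of the 9 member probe sets fell and none rose, for 7 of the 8 genes. Over all probe sets tested, 20.3% fell and 38.9% changed in either direction. Both Trk receptors, all 3 Sorcs genes, Sort1 and Bdnf were lower, and Ngfr was not called. With 10 µM irinotecan 7 of the 9 probe sets fell and none rose, again with Ngfr not called, where 11.3% of all probe sets fell. On the 3' arrays, 300 nM topotecan lowered 10 of 20 member probe sets (3.21% of all fell), and ICRF-193 lowered 11 of 20 (8.01% of all fell). None rose with either. Groups of arrays did not overlap for 27.9% of all probe sets at 300 nM topotecan, 36.1% with ICRF-193, 19.1% at 1 µM topotecan and 56.2% with irinotecan. Astrocyte marker sums were also lower on the drug arrays: 2085 to 2354 against 4576 to 5076 at 1 µM topotecan, 2000 to 2146 against 2511 to 2916 with irinotecan, 21530 to 27840 against 39660 to 48610 at 300 nM, and 25090 to 27940 against 33770 to 38160 with ICRF-193. Interneuron marker sums (11 genes, with Pvalb and Vip below the limit) were 1408 to 2139 against 3442 to 4944 at 1 µM topotecan and 1802 to 2245 against 3136 to 3338 with irinotecan. On the 3' arrays they overlapped at 300 nM topotecan (11980 to 25750 against 13970 to 19940), and were 6858 to 7192 against 7393 to 7592 with ICRF-193. At 300 nM topotecan fibroblast marker sums (12 genes, with Dpt below the limit) were 13700 to 23370 against 25040 to 40550. In the other sets fibroblast sums overlapped: 3999 to 6211 against 3834 to 5380 at 1 µM topotecan, 1964 to 2199 against 2007 to 2463 with irinotecan, and 26890 to 27400 against 25590 to 33390 with ICRF-193. Of 13 pan-neuronal markers, 8 fell at 1 µM topotecan, where their sums were 13590 to 17360 against 16290 to 20860. The part of these markers in the members' changes was not tested.

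**Figure D2:**
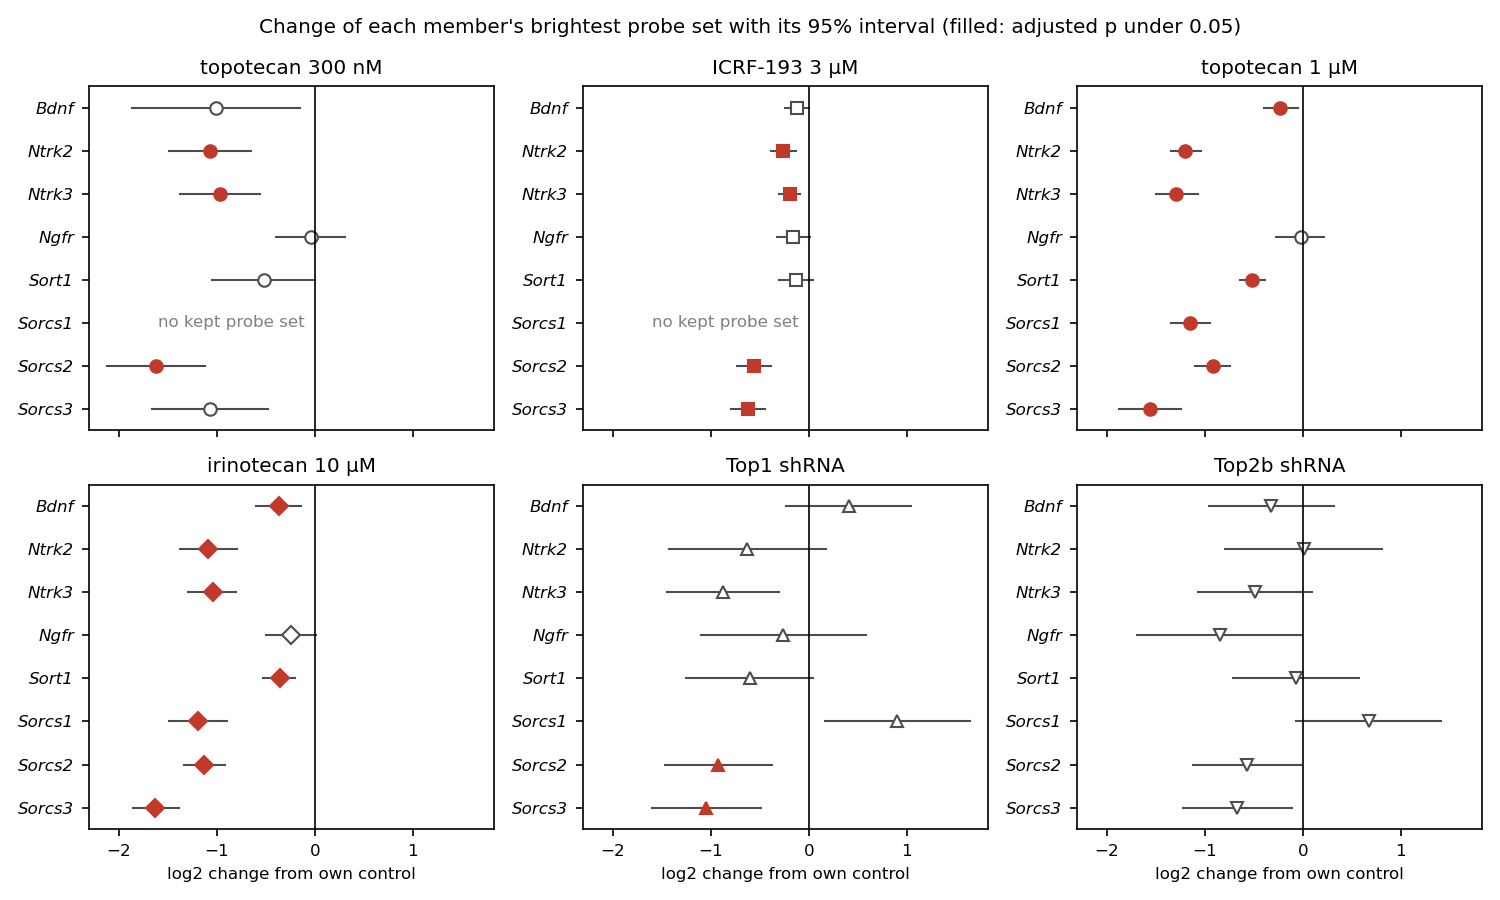
Log2 change with its 95% confidence interval (horizontal axes) of the brightest tested probe set of each gene in 6 comparisons, filled where the adjusted p was under 0.05. Sorcs1 has no tested probe set on the 3' arrays. The Sorcs1 points lie below 0 for 1 µM topotecan and irinotecan and above 0 for both shRNAs.

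Bdnf, the ligand of TrkB, had small changes at 1 µM topotecan and with irinotecan, and these calls rested on few arrays. At 1 µM topotecan its lowest, median and highest levels were 5.13, 5.36 and 5.57, against 5.34, 5.59 and 5.79 with vehicle. These ranges overlapped. The change was -0.23 ± 0.08 (SE, n = 6 and 6, limma, adjusted p = 0.0423), and the call was lost under 10 of the 12 settings that left out 1 array (adjusted p 0.0517 to 0.096). It was also lost without the filter (0.0623), with arrays centred on the median (-0.15, 0.192), with 16 added before the log (0.0527), with a trended eBayes (0.0664) and with the replicate block (0.0538). With irinotecan the levels were 4.87, 4.85 and 4.63 against 5.12 and 5.19, a change of -0.37 ± 0.10 (adjusted p = 0.0315). The irinotecan mean of 4.78 was under the filter limit of 4.96. The call was lost without irinotecan array 2 or 3 (0.0539 and 0.0623) and without vehicle array 1 or 2 (0.101 and 0.143).

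Bdnf had 2 probe sets on the 3' arrays. At 300 nM topotecan the first, 1422168_a_at, read 7.78, 8.40 and 7.79 against vehicle values of 8.21, 9.32 and 10.26. The spread among the vehicle arrays was over 2 log2 units, and the change of -1.28 ± 0.47 was not called (adjusted p = 0.19). The second, 1422169_a_at, read 7.96, 8.22 and 8.08 against 8.23, 9.21 and 9.86, with no overlap and a change of -1.01 ± 0.37 (adjusted p = 0.183). Without vehicle array 1, the lowest of the 3 for both, the changes were -1.80 (adjusted p = 0.0413) and -1.45 (0.0242). With ICRF-193 the changes were -0.18 ± 0.07 (adjusted p = 0.127) and -0.12 ± 0.05 (0.173). With the replicate number as a block the first of these was called (adjusted p = 0.0262).

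Ntrk2, the receptor of BDNF, was lower under every topoisomerase drug tested. At 1 µM topotecan its lowest, median and highest levels were 8.97, 9.02 and 9.14, against 9.96, 10.30 and 10.38 with vehicle. Every drug array was below every vehicle array, by a mean of -1.20 ± 0.07 (2.29-fold, adjusted p = 1.73e-08). With irinotecan it read 9.22, 9.26 and 9.13 against 10.49 and 10.09, a change of -1.09 ± 0.12 (adjusted p = 0.0012). The doses of these drugs differ, so their changes are given side by side and were not compared. The 3' arrays tested 6 Ntrk2 probe sets, of which 4 fell at 300 nM topotecan. The brightest, 1458622_at, read 11.88, 11.59 and 11.48 against 12.39, 12.85 and 12.93, a change of -1.07 ± 0.18 (adjusted p = 0.0225). The others that fell lay at -1.09, -1.13 and -1.36, while 1435196_at (-1.29, adjusted p = 0.0512) and 1446712_at (-0.21, 0.42) were not called.

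All 6 Ntrk2 probe sets fell with ICRF-193. For 5 of them the change was smaller than at 300 nM topotecan, and for 1446712_at it was -0.31 (adjusted p = 0.0338) against -0.21. The brightest read 12.31, 12.28 and 12.24 against 12.60, 12.58 and 12.43, a change of -0.26 ± 0.05 (adjusted p = 0.0213). The largest of the 6 changes was that of 1435196_at, which read 10.90, 10.73 and 10.66 against 11.53, 11.38 and 11.41. Its change was -0.67 ± 0.07 (adjusted p = 0.00159). The probe sets of Ntrk2 may read different transcript forms, with and without the kinase, but which form each reads is not given in the sources used here.

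Ntrk3, the receptor of neurotrophin-3, was also lower under topotecan and irinotecan. At 1 µM its lowest, median and highest levels were 7.68, 7.98 and 8.19, against 8.92, 9.25 and 9.39 with vehicle. The groups did not overlap, and the change was -1.29 ± 0.10 (2.44-fold, adjusted p = 2.56e-07). With irinotecan it read 8.58, 8.52 and 8.30 against 9.55 and 9.47, a change of -1.04 ± 0.10 (adjusted p = 0.000647). On the 3' arrays all 5 tested Ntrk3 probe sets fell at 300 nM. Of these 1455917_at read 8.77, 8.51 and 8.13 against 9.86, 10.31 and 10.39, a change of -1.72 ± 0.21 (adjusted p = 0.00802). The largest was 1447723_at, at -2.09 ± 0.33 (adjusted p = 0.019), and the other 3 lay between -0.79 and -0.97.

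With ICRF-193, 2 of the 5 Ntrk3 probe sets fell, 1422329_a_at (-0.18 ± 0.04, adjusted p = 0.0216) and 1433825_at (-0.19 ± 0.04, 0.0267). The probe set 1455917_at was at -0.25 ± 0.07 (adjusted p = 0.0514), and it was called with the replicate block (0.0133). The block raised the count of member probe sets that fell with ICRF-193 from 11 to 13, the other addition being Bdnf.

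Ngfr, the p75 receptor, was not called in the main comparison of any topoisomerase drug with its vehicle. At 1 µM topotecan its lowest, median and highest levels were 5.65, 6.10 and 6.16, against 5.71, 6.03 and 6.26 with vehicle. The ranges overlapped almost wholly, and the difference was -0.02 ± 0.11, with a 95% interval of -0.27 to 0.22 (adjusted p = 0.9). Its sign turned to 0.05 when each array was centred on its median. With irinotecan Ngfr read 5.22, 5.42 and 5.49 against 5.52 and 5.71, which did not overlap, and the difference of -0.24 ± 0.11 was not called (adjusted p = 0.144). On the 3' arrays its tested probe set was at -0.04 ± 0.15 with 300 nM topotecan (adjusted p = 0.903) and at -0.16 ± 0.07 with ICRF-193 (0.177). Without ICRF-193 vehicle array 2 the latter was called (-0.24, adjusted p = 0.0493).

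Sort1 encodes sortilin, which sorts the BDNF precursor and binds precursors together with p75. Of its 2 probe sets on the later arrays, 17401673 fell at 1 µM topotecan, from vehicle levels of 10.12, 10.19 and 10.32 (lowest, median, highest) to 9.54, 9.70 and 9.79. The groups did not overlap, and the change was -0.52 ± 0.06 (adjusted p = 1.03e-05). The other Sort1 probe set, 17409277, was at -0.03 (adjusted p = 0.871). It was dim, near the filter limit of 4.96 on these arrays. It read 4.78 and 4.52 on the vehicle arrays of the irinotecan set and 4.80 on the DRB vehicle array. On the vehicle arrays of the oxidants it read 5.13 and 5.14, above the limit. Whether so dim a probe set could show a fall was not tested, so it neither matches nor contradicts the fall of 17401673. With irinotecan 17401673 read 9.86, 9.84 and 9.82 against 10.21 and 10.19, a change of -0.36 ± 0.07 (adjusted p = 0.011). That call was lost without vehicle array 1 (0.0696) or 2 (0.0599). None of the 3 Sort1 probe sets on the 3' arrays was called, with 1423362_at at -0.52 ± 0.22 with 300 nM topotecan (adjusted p = 0.25) and at -0.13 ± 0.07 with ICRF-193 (0.281).

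Sorcs1 and Sorcs3 encode neuronal sorting receptors that act on synaptic membrane proteins, and Sorcs2 encodes a receptor that pairs with p75 in precursor signalling. Sorcs3 had the largest change of the 8 genes at 1 µM topotecan. Its lowest, median and highest levels were 5.70, 6.48 and 6.64, against 7.57, 7.90 and 8.23 with vehicle. The groups lay almost a log2 unit apart, and the change was -1.56 ± 0.15 (2.95-fold, adjusted p = 1.9e-06). With irinotecan it read 6.31, 6.51 and 6.44 against 8.15 and 7.94, a change of -1.63 ± 0.10 (3.09-fold, adjusted p = 8.68e-05).

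Sorcs1 at 1 µM topotecan had lowest, median and highest levels of 7.28, 7.52 and 7.59, against 8.39, 8.59 and 8.98 with vehicle. The change was -1.15 ± 0.09 (2.22-fold, adjusted p = 3.68e-07), with no overlap. With irinotecan Sorcs1 read 5.61, 5.76 and 6.02 against 7.03 and 6.95, a change of -1.19 ± 0.12 (adjusted p = 0.000797). Sorcs2 at 1 µM topotecan had levels of 7.19, 7.26 and 7.40, against 7.84, 8.25 and 8.38. Its change was -0.92 ± 0.09 (1.89-fold, adjusted p = 1.51e-06), also with no overlap. With irinotecan Sorcs2 read 7.31, 7.25 and 7.10 against 8.39 and 8.30, a change of -1.13 ± 0.09 (adjusted p = 0.000258).

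The 3' probe set of Sorcs2 read 8.56, 8.65 and 8.29 at 300 nM topotecan against 9.68, 10.20 and 10.48, a change of -1.62 ± 0.21 (adjusted p = 0.0103). With ICRF-193 it read 8.20, 8.06 and 8.03 against 8.75, 8.69 and 8.53, a change of -0.56 ± 0.07 (adjusted p = 0.00318). Sorcs2 groups did not overlap in either set. Sorcs3 was called with ICRF-193 and not with 300 nM topotecan, where its vehicle arrays spread. Its probe set 1425110_at read 7.16, 7.10 and 6.98 against 7.80, 7.74 and 7.57 with ICRF-193, a change of -0.62 ± 0.07 (adjusted p = 0.00219). At 300 nM topotecan it read 8.09, 7.99 and 7.99 against 8.49, 9.23 and 9.56, a change of -1.07 ± 0.25 (adjusted p = 0.0642). The other Sorcs3 probe set, 1425111_at, was at -0.92 ± 0.12 (adjusted p = 0.00333) with ICRF-193 and at -1.46 ± 0.37 (0.0795) with topotecan. Without vehicle array 1 the topotecan changes were -1.37 (adjusted p = 0.00961) and -1.90 (0.0134). The 3 Sorcs1 probe sets on these arrays were below the filter limit and are not read here.

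**Figure D3:**
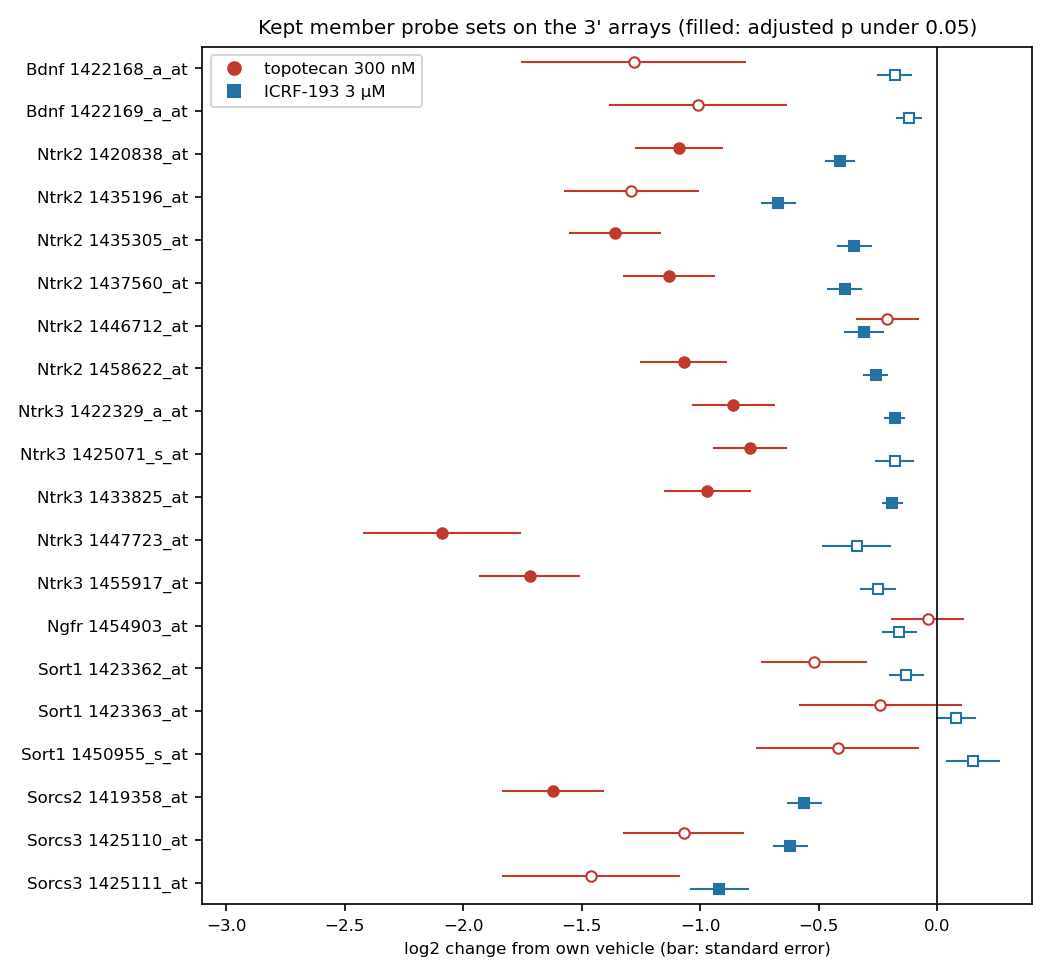
Log2 change with its standard error (horizontal axis) of the 20 tested member probe sets on the 3' arrays (vertical axis), for 300 nM topotecan (red circles) and 3 µM ICRF-193 (blue squares), each against its own vehicle, filled where called. The 5 Ntrk3 probe sets lie farther below 0 with topotecan than with ICRF-193, and the Ngfr probe set lies near 0 with both.

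Leaving out 1 array moved these counts. With 300 nM topotecan, 1 to 14 member probe sets fell, with 2 without topotecan array 2, 4 without topotecan array 3, 1 without vehicle array 2 and 6 without vehicle array 3. With ICRF-193, 5 to 15 were called. The count was 5 without ICRF-193 array 2 or 3, 6 without vehicle array 1 and 7 without vehicle array 2. All of these fell except Sort1 1450955_s_at, which rose without vehicle array 3 (0.29, adjusted p = 0.0242). At 1 µM topotecan and with irinotecan, the calls of Ntrk2, Ntrk3, Sorcs1, Sorcs2 and Sorcs3 were kept with each array left out.

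The test of the difference between the effect of 300 nM topotecan and that of ICRF-193 called 4 of the 20 member probe sets, all with the lower value for topotecan, where 2.07% of all probe sets were called lower. They were Ntrk3 1455917_at (-1.46 ± 0.23, adjusted p = 0.00957), Ntrk3 1447723_at (-1.75 ± 0.40, 0.0431), Ntrk2 1435305_at (-1.01 ± 0.22, 0.0339) and Sorcs2 1419358_at (-1.06 ± 0.24, 0.0419). The Sorcs3 differences were -0.45, with a 95% interval of -1.09 to 0.19, and -0.54, with an interval of -1.52 to 0.44, and neither was called. With the replicate number as a block none of the 4 was called (adjusted p 0.0848 to 0.157, the lowest for Ntrk3 1455917_at). That probe set was the only one of the 4 whose call held with each array left out. The count was 1 without any of the 6 ICRF-193 set arrays or without topotecan array 2 or 3, 2 without topotecan vehicle array 2, and 12 without topotecan vehicle array 1. The drugs differ in target, dose and array set, which cannot be told apart here.

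In the dose series the slope of level on the rank of the topotecan dose was tested over 10 arrays. Of 8 member probe sets, 2 had falling slopes, against 2.02% of all probe sets. Ntrk2 read 10.71, 10.72 and 10.32 with vehicle, 10.33 at 3 nM, 10.27 at 30 nM and 10.13 at 150 nM. It then read 9.97 and 9.97 at 300 nM, 9.89 at 500 nM and 9.86 at 1000 nM. From 3 nM its levels went down at each higher dose, and the slope was -0.13 ± 0.02 per dose rank (adjusted p = 0.00846). Ntrk3 read 9.38, 9.39 and 9.35 with vehicle, 9.30, 9.36 and 9.26 at 3, 30 and 150 nM, 9.24 and 9.17 at 300 nM, 9.05 at 500 nM and 8.58 at 1000 nM. Most of the Ntrk3 fall lay in the highest dose, with a slope of -0.09 ± 0.02 (adjusted p = 0.0478), and the Ntrk3 call was lost without any 1 of the arrays other than the 1000 nM array (adjusted p 0.0546 to 0.0997). It was also lost without the filter (0.0837), with arrays centred on the median (0.0676) and with the slope on log10 dose (0.138). The number of members called was 1 without vehicle array 1 or 2, without either 300 nM array, or without the 3, 30, 150 or 500 nM array. Astrocyte marker sums were 5188 to 19000 on the vehicle arrays, 3771 to 6280 at 3 to 500 nM and 9488 at 1000 nM, and the 10 tested astrocyte markers had slopes of -0.45 to -0.08 (median -0.22), none called. Their part in the Ntrk2 slope was not tested.

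**Figure D4:**
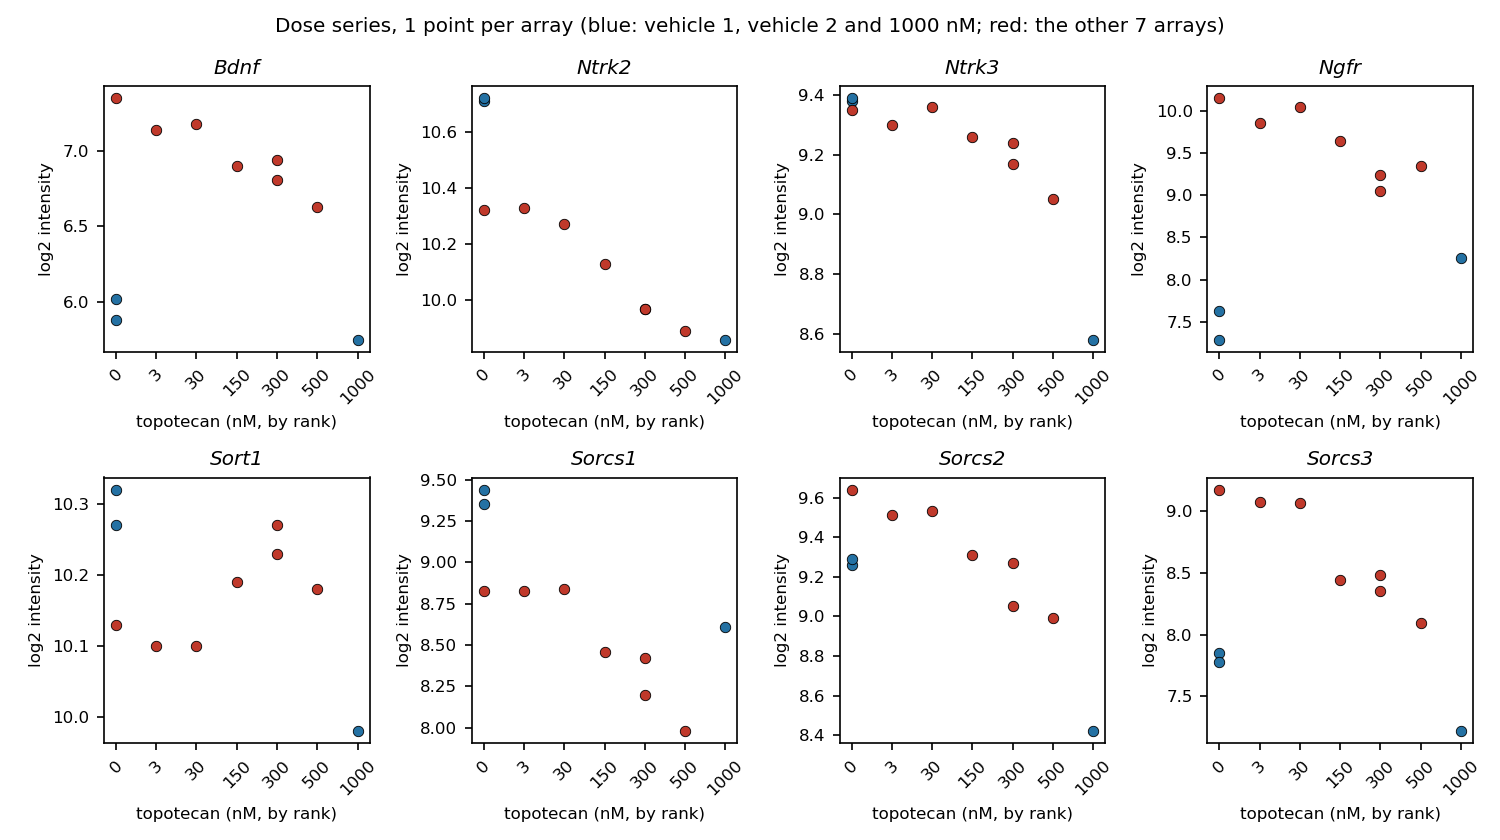
Log2 intensity (vertical axes) of the 8 measured genes on the 10 arrays of the dose series by topotecan dose in nM (horizontal axes), with vehicle arrays 1 and 2 and the 1000 nM array in blue. Ntrk2 goes down with dose, and for Bdnf, Ngfr and Sorcs3 the blue arrays lie below the other vehicle array.

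Vehicle arrays 1 and 2 and the 1000 nM array stood apart from the rest on the first principal component of all tested probe sets (70.4% of variance, -43.28 to -32.65 against 12.88 to 18.99). Bdnf, Ngfr and Sorcs3 lay low on these 3 arrays, and Ntrk2 lay high on the 2 vehicle arrays among them. Bdnf read 6.02 and 5.88 on vehicle arrays 1 and 2 and 7.35 on vehicle array 3, then 7.14, 7.18 and 6.90 at 3, 30 and 150 nM. It read 6.94 and 6.81 at 300 nM, 6.63 at 500 nM and 5.75 at 1000 nM. Ngfr read 7.63, 7.29 and 10.15 with vehicle, and between 9.05 and 10.04 at 3 to 500 nM, then 8.26 at 1000 nM. Sorcs3 read 7.85, 7.78 and 9.17 with vehicle, and between 8.35 and 9.07 at 3 to 300 nM, then 8.09 and 7.22 at 500 and 1000 nM. Over all 10 arrays their slopes were -0.04 (adjusted p = 0.851), 0.05 (0.9) and -0.12 (0.512).

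Among the 7 arrays left when those 3 were taken out, 6 member probe sets had falling slopes, as 1210 of 12731 probe sets were called in either direction. They were Sorcs3 (-0.22, adjusted p = 0.00245), Ngfr (-0.21, 0.0156), Sorcs1 (-0.17, 0.00693), Bdnf (-0.13, 0.0038), Sorcs2 (-0.13, 0.00484) and Ntrk2 (-0.10, 0.00525). The Ngfr slope thus had the other sign than over 10 arrays. Ntrk3 was at -0.05 (adjusted p = 0.069) and Sort1 at 0.03 (0.276). Over 10 arrays the Sorcs1 and Sorcs2 slopes were -0.17 ± 0.04 (adjusted p = 0.0549) and -0.12 ± 0.03 (0.0718).

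In the shRNA arrays the targeted genes were read first. Top1 was at 8.98, 8.46 and 8.55 with control shRNA and at 7.62, 8.39 and 8.29 with Top1 shRNA. The groups did not overlap, but only replicate 1 was far below, and the change of -0.57 ± 0.26 was not called (adjusted p = 0.203). Top2b was at 9.30, 8.39 and 8.17 with control shRNA and at 8.62, 6.87 and 6.80 with Top2b shRNA. Replicate 1 of Top2b shRNA was above replicates 2 and 3 of the control, which lay in another array set. Within each array set every Top2b shRNA array was below the control arrays. The change over all replicates, -1.19 ± 0.48, was not called (adjusted p = 0.235). Fibroblast marker sums over 12 genes, 9 of them above the limit and Dpt, Lum and Slc6a13 below it, were 1630 to 2529 with control shRNA, 6271 to 8885 with Top1 shRNA and 4943 to 7090 with Top2b shRNA, and pan-neuronal sums were 19170 to 19840, 9879 to 14280 and 11480 to 16880. Excitatory neuron sums (9 genes, with Neurod1 below the limit) were 2690 to 3414, 897 to 1493 and 1518 to 2168. Interneuron sums (11 genes, with Pvalb and Vip below the limit) were 2816 to 5349, 1311 to 1873 and 1764 to 3527. Astrocyte sums were 3486 to 4161, 3449 to 6549 and 3560 to 12720. The part of these differences in the members' values was not tested.

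With Top1 shRNA, 2 of 9 member probe sets fell and none rose (4.99% of all fell and 5.4% rose). Sorcs3 read 6.83, 6.53 and 7.36 against 8.11, 7.89 and 7.85, a change of -1.05 ± 0.25 (adjusted p = 0.0279). Sorcs2 read 7.68, 7.23 and 7.45 against 7.94, 8.60 and 8.62, a change of -0.93 ± 0.25 (adjusted p = 0.0394). Neither gene's groups overlapped. Both calls rested on the choice of arrays: 0 members were called without control array 2 or 3 or Top1 array 2, and also without Top2b array 2, which enters through the shared spread. The count was 1 without control array 1, Top1 array 3 or Top2b array 3.

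Among the receptors, Ntrk3 read 9.14, 8.24 and 8.29 with Top1 shRNA against 9.40, 9.49 and 9.40, a difference of -0.88 ± 0.26 (adjusted p = 0.0579). Ntrk2 read 9.68, 9.41 and 9.93 against 10.81, 10.18 and 9.92, with overlap and a difference of -0.63 (adjusted p = 0.321). Ngfr read 6.39, 4.96 and 5.30 against 6.29, 5.70 and 5.45, a difference of -0.26 (adjusted p = 0.749). The sign of Sorcs1 and Bdnf was the other way. Sorcs1 read 9.08, 7.82 and 7.95 with Top1 shRNA against 7.55, 7.20 and 7.39, with no overlap (as for 29.2% of all probe sets) and a difference of 0.90 ± 0.33 (adjusted p = 0.113). Sorcs1 and Ntrk3 were called with the replicate number as a block, which also separates the array sets (adjusted p = 0.0274 and 0.0298), after a new quantile normalization (0.0385 and 0.0381) and with arrays centred on the median (0.0316 and 0.0296). Bdnf read 5.52, 5.85 and 5.85 against 5.93, 4.79 and 5.28, a difference of 0.41 (adjusted p = 0.437). The lowest of these Bdnf and Ngfr levels lay near or under the filter limit of 4.96.

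With Top2b shRNA, 0 of 9 member probe sets were called by limma, where 2.66% of all were called. At an unadjusted p under 0.05 lay 3 of these 9, as did 2382 of all 14113 probe sets. Sorcs3 read 7.48, 7.20 and 7.17, below every control array, a difference of -0.67 (adjusted p = 0.201). Ntrk3 read 8.92, 8.89 and 9.01, also below every control array, a difference of -0.49 (adjusted p = 0.389). Sorcs2 read 7.89, 7.71 and 7.84, a difference of -0.57 (adjusted p = 0.271). Sorcs1 was above every control array at 8.36, 8.03 and 7.76, a difference of 0.67 (adjusted p = 0.358). Ngfr read 5.20, 4.60 and 5.08, below every control array, a difference of -0.85 ± 0.38 (adjusted p = 0.29), and Bdnf read 5.01, 5.11 and 4.92, a difference of -0.32 (0.651). These Ngfr and Bdnf levels lay near or under the filter limit of 4.96, which limits how their differences can be read. Groups did not overlap for 27.2% of all probe sets. Ntrk2 read 11.10, 9.89 and 9.94, and its difference of 0.01 (adjusted p = 0.994) turned to -0.02 after a new quantile normalization.

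Replicates 2 and 3 of the shRNA groups lay in 1 array set, so the fit was also made within them, with 2 arrays a group. On these arrays Top1 itself was little lower with Top1 shRNA, at 8.39 and 8.29 against 8.46 and 8.55. Top2b was at 6.87 and 6.80 with Top2b shRNA against 8.39 and 8.17. With Top1 shRNA, 5 member probe sets were then called, as 6152 of 14113 were in all. Sorcs2 (-1.27, adjusted p = 0.000799), Ntrk3 (-1.18, 0.000788) and Sorcs3 (-0.93, 0.0246) fell, and Bdnf (0.82, 0.012) and Sorcs1 (0.59, 0.0209) rose. With Top2b shRNA, 4 were called, as 3079 were in all: Sorcs2 (-0.83, adjusted p = 0.00872), Ngfr (-0.73, 0.0498) and Ntrk3 (-0.50, 0.0372) fell, and Sorcs1 (0.60, 0.0357) rose. Bdnf and Ngfr lay near or under the filter limit of 4.96 on some arrays of replicates 2 and 3, which limits how their changes can be read. Replicate 1 was alone in its array set in each group and gives no within-set test. The direct test of Top1 against Top2b shRNA over all 9 arrays called 0 of 14113 probe sets (0%) by limma, with 820 at an unadjusted p under 0.05, 1 of them a member. Bdnf was 0.73 higher with Top1 than with Top2b shRNA (adjusted p = 0.811), with no overlap of arrays, as for 10% of all probe sets. Within replicates 2 and 3 that difference was 0.84 (adjusted p = 0.0328), and Ntrk3 was lower with Top1 shRNA (-0.68, 0.0224), the only 2 members called there, as 1879 probe sets were in all.

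Single arrays have no replicate, so their differences from vehicle carry no test. After 24 h of topotecan Sorcs3 read 6.38 against vehicle values of 8.15 and 7.94, a difference of -1.67. Sorcs1 read 5.81 against 7.03 and 6.95 (-1.18), and Ntrk3 read 8.49 against 9.55 and 9.47 (-1.02). These 3 were at least 1 log2 unit lower, as were 2.32% of all probe sets, and no member was that much higher (0.383% of all). Ntrk2 read 9.29 against 10.49 and 10.09 (-0.99), and Sorcs2 read 7.48 against 8.39 and 8.30 (-0.87). Both were also below either vehicle array. Sort1 was at -0.51, Ngfr at -0.24 and Bdnf at -0.03. The members' median was -0.93, and the median of all probe sets was 0.08.

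On the washout array the same genes read close to vehicle. Sorcs3 was at 8.13, Sorcs1 at 7.03 and Ntrk3 at 9.41, differences of 0.09, 0.04 and -0.10. Ntrk2 at 9.99 differed by -0.30 and lay below both vehicle arrays, while Sorcs2 at 8.56 was above both, by 0.21. Bdnf at 5.59 (0.43) and Ngfr at 6.19 (0.57) were also above both vehicle arrays. None of the members was 1 log2 unit away, as for all but 0.0213% of probe sets in each direction. The astrocyte marker sum was 2314 on the 24 h array and 2229 on the washout array, both under the vehicle range of 2511 to 2916. The 24 h, washout and irinotecan arrays share their 2 vehicle arrays, so these comparisons are not independent.

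With DRB, Bdnf read 8.19 against 6.11 on the vehicle array, a difference of 2.08 (4.23-fold). It was the only member 1 log2 unit higher, as 6.75% of all probe sets were, and none was 1 log2 unit lower, against 18.3% of all. The median of all probe sets was -0.32, so Bdnf was 2.08 above vehicle while most probe sets were below it. The values are normalized intensities, with array means of 201.5 with DRB and 208.5 with vehicle, so this rise is relative to the other RNA on the array. The Bdnf difference was 2.54 with arrays centred on the median and 1.86 with 16 added before the log. Ntrk2 read 11.38 against 10.68 (0.70) and Sorcs3 was at 0.26. Ngfr was at -0.63, Sorcs2 at -0.55, Sort1 at -0.48 (its other probe set at 0.56), Sorcs1 at -0.22 and Ntrk3 at -0.20. Of 31 measured genes induced by BDNF or by neuronal activity, 23 were also at least 1 log2 unit higher on the DRB array (median 1.73). All 10 measured astrocyte markers above the limit were at least 1 log2 unit lower, with a summed level of 1173 against 5433.

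With H2O2, Sorcs1 read 7.21 against 8.37 and 8.20 (-1.07) and Ngfr read 5.76 against 6.56 and 7.05 (-1.04). These were the only members 1 log2 unit away, as 1.06% of all probe sets were lower and 1.63% higher by that much. Bdnf was 0.59 and Ntrk3 0.55 higher. With paraquat no member reached 1 log2 unit (1.76% of all were lower and 3.42% higher by that much), with Ngfr at 5.93 (-0.87) and Sorcs1 at 7.78 (-0.51) the lowest. The 2 vehicle arrays shared by these oxidants differed by 1.42 for Sorcs3 and 0.78 for Ntrk3, and their pan-neuronal sums were 14300 and 27280 and their fibroblast sums 3271 and 9209. Such gaps limit how differences from the vehicle mean can be read. A difference smaller than the gap can still lie outside the vehicle range: Ntrk3 with H2O2, at 10.01, was above both vehicle arrays (9.07 and 9.85).

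**Figure D5:**
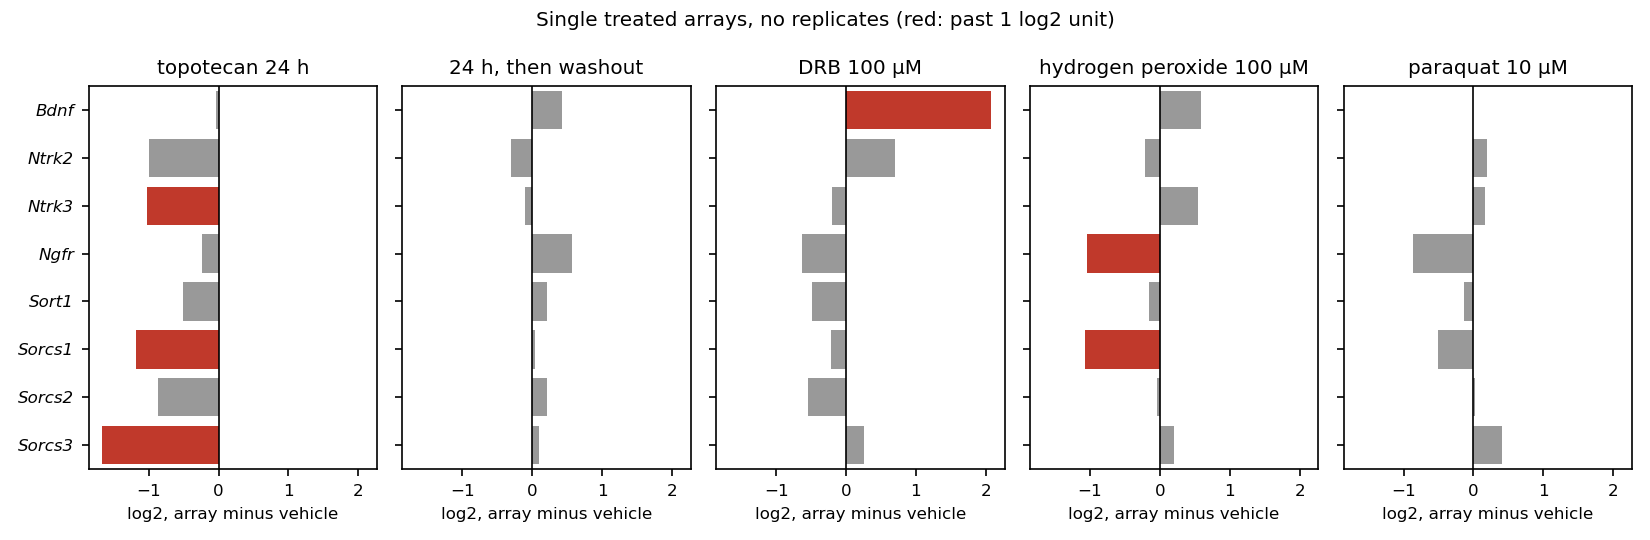
Level on 1 treated array minus the mean of its vehicle arrays, in log2 units (horizontal axes, bars from 0), for the members in 5 treatments, with bars past 1 in red. The 24 h topotecan bars of Sorcs3, Sorcs1 and Ntrk3 pass -1, the washout bars stay within 1, and the DRB bar of Bdnf reaches 2.08.

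The members differ in gene length. On GRCm38.p6 annotation Sorcs3 spans 599 kb, Sorcs1 536 kb, Ntrk3 401 kb, Sorcs2 381 kb and Ntrk2 327 kb, while Sort1 spans 77.5 kb, Bdnf 52.3 kb and Ngfr 18.9 kb. At 1 µM topotecan all 5 members over 300 kb fell, and 89.4% of 490 tested genes of that length did, with a median of -0.95. Of genes between 50 and 100 kb, which hold Bdnf and Sort1, 24.4% fell, and of those up to 50 kb, which hold Ngfr, 10.7% fell. With irinotecan 85.9% of the genes over 300 kb fell, with a median of -1.03, and 7.23% of those between 50 and 100 kb. At 300 nM topotecan 56% of 414 genes over 300 kb fell, with a median of -1.04, and with ICRF-193 52.7%, with a median of -0.24. With Top1 shRNA 19.6% of the 490 fell, with a median of -0.70, and with Top2b shRNA 3.06%, with a median of -0.35. By their brightest tested probe sets, the long members that fell were 5 of 5 with irinotecan, 3 of 4 at 300 nM topotecan, 4 of 4 with ICRF-193, 2 of 5 with Top1 shRNA and 0 of 5 with Top2b shRNA. Sorcs1 lay on the other side of 0 from the median of its length class with both shRNAs.

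Other genes of the pathway were read from lists chosen by function, each gene by its brightest tested probe set. Of all 13512 genes, 18.2% rose and 20.5% fell at 1 µM topotecan (median -0.01), and 15.5% rose and 11.1% fell with irinotecan (median 0.07). With Top1 shRNA 5.58% rose and 5.1% fell, and with Top2b shRNA 1.78% rose. On the 3' arrays 3% of 12103 genes fell at 300 nM topotecan, and 6.73% rose and 8.06% fell with ICRF-193. Among 6 other neurotrophin receptors, co-receptors and relatives, 4 fell and 1 rose at 1 µM topotecan. Lingo1, a p75 co-receptor (-0.63), Sorl1, a sortilin relative (-0.52), and Rtn4r, the Nogo receptor (-0.42), fell most, and Nradd, a p75 homologue (0.32), was the one that rose. With irinotecan only Lingo1 was called (-0.26). With Top1 shRNA Lingo1 (-1.68) and Rtn4r (-1.14) fell and Sorl1 rose (1.36).

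Of 23 genes of precursor processing, secretion and trafficking, 8 fell and 6 rose at 1 µM topotecan. Cadps, which primes dense-core vesicles for release, fell most (-2.05 ± 0.12, adjusted p = 2.12e-08). The protease gene Pcsk6 (-1.18), the Cadps relative Cadps2 (-1.13) and the adhesion gene Ncam1 (-1.13) fell too. With irinotecan 5 fell and 3 rose, led by Cadps (-1.61) and Cadps2 (-1.25). At 300 nM topotecan Cadps (-1.56, adjusted p = 0.0188) and Ncam1 (-0.86) were the 2 of 22 that fell.

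Of 52 adaptors, kinases and effectors of Trk and p75 signalling, 11 fell and 8 rose at 1 µM topotecan. Camk4, a calcium-dependent kinase that acts on CREB (-1.48), Mapk10, a kinase of the JNK family (-1.10), and the neuronal adaptor Shc3 (-0.85) fell. The adaptor Shc1 (1.18) rose. With irinotecan 8 fell and 8 rose, with Camk4 at -1.12, Mapk10 at -0.79 and Camk2a at -0.61, and the adaptor Gab1 at 0.70. With Top1 shRNA 2 fell and 4 rose, among them Camk4 (-1.37), Gab1 (1.70), Irs1 (1.33) and Shc1 (1.28), and with Top2b shRNA only Gab1 was called (1.55). These shares are close to those of all genes at 1 µM topotecan.

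Of 31 genes induced by BDNF or by activity, 15 fell and 9 rose at 1 µM topotecan, with a median of -0.26. The neuropeptide gene Npy (-1.98) and the transcription factor genes Egr3 (-1.78) and Npas4 (-1.21) fell, and Gadd45b, a stress and activity gene, rose (1.00). With irinotecan 15 fell and 2 rose (median -0.33), with Npy at -1.46, Npas4 at -1.18, Egr3 at -1.17 and Nr4a1 at -1.03. With ICRF-193 3 fell and 6 rose, with Npy at -0.84 and Rgs4 (0.41), Btg2 (0.30) and Nr4a2 (0.29) the largest called changes. Of 19 genes of other neurotrophic factor systems, 7 fell and 4 rose at 1 µM topotecan. The HGF receptor gene Met (-1.18) and the VEGF receptor gene Kdr (-0.95) fell, and the cytokine gene Clcf1 (1.18) and the CNTF receptor gene Cntfr (0.71) rose. With Top1 shRNA 3 of the 19 fell, Met among them (-1.72), and 3 rose, among them Kdr (1.44) and Clcf1 (1.37).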

How the data were processed

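RNA of cultured mouse cortical neurons was read on 56 Affymetrix arrays. The deposited values are linear intensities that the authors made with Affymetrix Expression Console and RMA, per the submitters' processing notes; versions are not given in the sources used here. Log2 of each intensity was taken, since the analysis plan had log2 values. Genes come from the platform annotation, and probe sets with more than 1 symbol were left out. Groups were set by sample title, because some descriptions contradict the titles. Probe sets under the 40th percentile of mean log2 level in their array design were dropped (limits 6.39 on the 3' arrays, 6.08 on the earlier and 4.96 on the later arrays), which kept 20975, 12731 and 14113. The number of arrays limits the precision.

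Each treatment was fitted against its own control with limma 3.58.1 in R 4.3.3 (lmFit and eBayes, 2-sided), and p-values were adjusted by Benjamini-Hochberg over all probe sets kept, with a threshold of 0.05. The script was tested on simulated data. The 3 shRNA groups shared 1 fit, and the dose series was fitted as a slope on dose rank. Single treated arrays were compared with their vehicles without a test, and 1 log2 unit was used as the limit for counts. Alternatives were no filter, a new quantile normalization, median centring, log2(value + 16), gene means, a trended and robust eBayes, the replicate number as a block, and each array left out in turn.

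The members, lists and tests were chosen with earlier results of these data known. The text names every member, Top1 and Top2b, and for Bdnf, Ntrk2 and Sort1 the 3 genes of the most alike pattern. List genes were taken from the up to 4 genes with the largest called change per list and comparison, and not all of these are named.

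Pairing was checked by correlating deviations from the group means between arrays of the same replicate number, which come from the titles. With ICRF-193 the 3 correlations were 0.32, 0.18 and 0.29, and with Top2b shRNA 0.47, 0.40 and 0.36, so these numbers met the check. With Top1 shRNA (0.33, 0.07 and 0.30), 300 nM topotecan (-0.03, -0.16 and -0.43), 1 µM topotecan (-0.51 to 0.24) and irinotecan (-0.01 and -0.03) they did not. The main fits used no block, also where the check was met, and the block was run as an alternative only. In the shRNA groups replicate 1 lay in another array set, so pairing and array set cannot be told apart there.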

Additional observations from a re-analysis of the deposited data

Results flagged for a closer look

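Sorcs2 on vehicle array 4 of the 1 µM topotecan set, at 7.84, lay farther from the other 5 vehicle arrays (8.18 to 8.38) than Dixon's limit allows. It was 1 of 18 sets of arrays tested, and chance flags about 1 in 20. The array was still above every topotecan array of Sorcs2.

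The effect of 300 nM topotecan differed from that of ICRF-193, each against its own vehicle, for 4 member probe sets by limma's test of the difference. They were Ntrk3 1455917_at (-1.46, adjusted p = 0.00957), Ntrk3 1447723_at (-1.75, 0.0431), Ntrk2 1435305_at (-1.01, 0.0339) and Sorcs2 1419358_at (-1.06, 0.0419). With the replicate number as a block none of the 4 was called (adjusted p 0.0848 to 0.157). Drug, dose and array set cannot be told apart in this test.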

How the results depend on the processing

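The 43 member changes called by limma were recomputed under each setting: the call was kept 250 times and lost 38 times under other settings, and kept 215 times and lost 116 times with 1 array left out. No called change turned its direction. Where a value below differs from the reported one, the cause was not tested. Without the filter on dim probe sets the number of member probe sets called was 7 for ICRF-193, 0 for Top1 shRNA, 2 for the difference between 300 nM topotecan and ICRF-193, and 1 for the dose slope. With arrays centred on the median it was 4 for Top1 shRNA, 1 for the dose slope, 3 for DRB and 1 for paraquat. With 16 added before the log it was 1 for 24 h topotecan and 0 for H2O2. With gene means, 3 genes were called for the difference between the drugs. Within replicates 2 and 3 it was 5 for Top1 shRNA, 4 for Top2b shRNA and 2 for their difference, and over 7 dose arrays 6.

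The replicate block gave 0 calls for 300 nM topotecan, 4 for Top1 shRNA, 6 for 1 µM topotecan, 5 for irinotecan, 0 for Top2b shRNA and 0 for the difference between 300 nM topotecan and ICRF-193, where only ICRF-193 and Top2b shRNA numbers met the pairing check. With 1 array left out the counts were 1 to 14 for 300 nM topotecan, 5 to 15 for ICRF-193, 0 to 3 for Top1 shRNA, 1 to 12 for the difference between the drugs and 1 to 3 for the dose slope.

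Signs turned for values that were not called. They became 0.03 for Sort1 1423362_at (ICRF-193) and 0.03 for Sort1 17401673 (Top2b shRNA) with gene means, and 0.05 for Ngfr and 0.04 for Sort1 17409277 (1 µM topotecan) with centring. Ntrk2 with Top2b shRNA became -0.02 with new quantiles and -0.13 within replicates 2 and 3, where Sorcs1 became -0.01 for Top1 against Top2b shRNA. Over 7 dose arrays Ngfr became -0.21 and Sort1 0.03. With 1 array left out the ranges that crossed 0 were -0.15 to 0.06 for Ngfr (300 nM topotecan), -0.02 to 0.13 for Sort1 1423363_at (ICRF-193), -0.08 to 0.05 for Ngfr and -0.11 to 0.07 for Sort1 17409277 (1 µM topotecan), -0.21 to 0.05 for Sort1 17409277 (irinotecan), -0.68 to 0.03 for Ngfr (Top1 shRNA), -0.39 to 0.26 for Ntrk2 (Top2b shRNA), -0.17 to 0.46 for Sorcs1 and -0.13 to 0.40 for Sort1 17409277 (Top1 against Top2b shRNA), and -0.08 to 0.17 for Ngfr and -0.10 to 0.06 for Bdnf (dose slope). Bdnf with irinotecan lay under the filter limit (mean 4.78 against 4.96), which limits how its change can be read.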

Other observations

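Over the 33 later arrays whose control mean could be subtracted, members were set against each other and against 13512 genes by Pearson's r. The arrays share control arrays and array sets, so r is given as a description only. Ntrk3 varied with Sorcs3 (0.91) and Sorcs2 (0.90), Ntrk2 with Sorcs3 (0.87) and Ntrk3 (0.80), and Sorcs2 with Sorcs3 (0.87). Ngfr had values between -0.10 and 0.15 with the other members, and Bdnf had 0.43 with Ntrk2.

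The genes of highest r were Taf4b (0.89), Dmxl1 (0.88) and Npas4 (0.86) for Bdnf, Tcf4 (0.92), Arid1b (0.92) and Dcc (0.91) for Ntrk2, and Bdh1 (0.84), Scamp1 (0.83) and St6galnac3 (0.82) for Sort1. The 33 arrays include the single DRB array, where Bdnf was 2.08 above its vehicle array. How far the r values of Bdnf rest on that array was not tested.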
